A study of Mus musculus with 6 samples.

Results

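The genes described are those that mouse mitochondria carry on their own chromosome, taken as the rows of the count table whose gene name starts with mt-. They numbered 35 of the 49315 rows. Among them, 13 were protein-coding genes and 22 were tRNA genes. The annotation lists 37 mitochondrial genes, and the rRNA genes mt-Rnr1 and mt-Rnr2 were not analysed here.

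Mitochondrial DNA is a small circular chromosome present in many copies in each cell. Its protein-coding genes specify core subunits of complexes I, III and IV of the respiratory chain and of ATP synthase, and the remaining subunits come from nuclear genes. Both strands are copied into long precursor RNAs, from which the tRNAs that lie between the other genes are cut out, and most of the mRNAs freed in this way receive short poly(A) tails.

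The libraries were made from lungs of male mice with the C57BL/6 genotype in the labels, taken after oropharyngeal instillation of sterile saline (sham) or bleomycin sulfate (BLM), a DNA-damaging drug used to provoke lung fibrosis. Lungs of several mice of a group were pooled and dissociated, and the cells were used unsorted or were sorted into Lamp1-depleted and Lamp1-enriched cells by surface staining for Lamp1, a lysosomal membrane protein. Each of the 6 combinations of treatment and fraction was 1 library of poly(A) RNA with 30236120 to 52918696 counted reads, so differences between animals were not measured and 95% intervals cover counting error only. Markers moved with the groups: 10 B cell genes summed to 4829 and 2429 CPM (reads per 1000000 reads outside Gm26917) in Lamp1-depleted sham and BLM cells and to 222 and 101 in Lamp1-enriched cells, 10 endothelial genes summed to 2270 and 1429 against 16217 and 16265, and 9 macrophage genes summed to 808 in unsorted sham and 4555 in unsorted BLM cells. Lamp1 stood at 174 and 126 CPM in the Lamp1-depleted and at 505 and 395 in the Lamp1-enriched sham and BLM libraries. Gm26917, a nuclear gene known from earlier results of these data, took 0.884% to 7.10% of the reads in 5 libraries and 38.4% in BLM Lamp1-depleted cells, so shares are given with and without it.

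The count of several members cannot be read without a nuclear near-copy of mitochondrial DNA. In GRCm38, 7 pseudogenes on chromosome 1 match chrM:6381-11042 in the same order on the minus strand of chr1:24611535-24616197, a stretch of 4662 bases on chrM and 4663 on chromosome 1. Over their 4149 aligned bases they differed at 7 positions, an identity of 99.8%. The stretch holds 6 protein-coding genes whole (mt-Co2, mt-Atp8, mt-Atp6, mt-Co3, mt-Nd3 and mt-Nd4l), 5 tRNA genes, 31.8% of mt-Co1 and 63.6% of mt-Nd4. The pseudogenes do not cover all of it. For mt-Atp8 and the 5 tRNA genes no nuclear transcript sharing 50 bases was found, so they are placed in the stretch by position alone. The first 60 bases of 2 of these genes, cytochrome c oxidase subunit mt-Co2 and complex I subunit mt-Nd3, are shown with their copies because they show how few bases can tell a mitochondrial read from a nuclear one. The sequences are from the GENCODE M21 transcripts, mt-Nd3 at chrM:9459-9518 (plus strand), Gm28438 at chr1:24613060-24613119 (minus strand), mt-Co2 at chrM:7013-7072 (plus strand) and Gm28661 at chr1:24615506-24615565 (minus strand). Capitals mark the base that differs, T3C counted from the first base of mt-Nd3 with the mitochondrial base first, and it was the only difference in 345 aligned bases.
mt-Nd3: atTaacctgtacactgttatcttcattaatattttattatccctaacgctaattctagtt
Gm28438: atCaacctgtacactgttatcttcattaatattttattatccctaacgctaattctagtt
mt-Co2: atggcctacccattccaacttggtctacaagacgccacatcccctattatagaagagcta
Gm28661: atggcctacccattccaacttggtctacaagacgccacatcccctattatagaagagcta

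The 3 tRNA genes that held most of the tRNA reads are shown whole, as DNA of the strand that encodes the tRNA, with the anticodon in capitals: mt-Tn for asparagine at chrM:5089-5159, mt-Tc for cysteine at chrM:5192-5257 and mt-Tp for proline at chrM:15356-15422, all on the minus strand. Between mt-Tn and mt-Tc lie 32 bases, where the origin of light-strand replication is known to be.
mt-Tn: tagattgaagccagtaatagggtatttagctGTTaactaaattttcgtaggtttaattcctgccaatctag
mt-Tc: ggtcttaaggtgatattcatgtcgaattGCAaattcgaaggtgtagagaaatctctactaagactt
mt-Tp: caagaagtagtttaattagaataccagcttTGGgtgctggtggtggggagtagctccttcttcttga

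The 13 mitochondrial mRNAs together made up a larger share of the reads in BLM than in sham cells in each fraction, and a smaller share in Lamp1-enriched than in Lamp1-depleted cells of either treatment. In sham cells they took 5.40% of all reads in unsorted, 4.83% in Lamp1-depleted and 3.52% in Lamp1-enriched cells. In BLM cells the shares were 8.02%, 7.98% and 4.87%. The exact Clopper-Pearson interval of each share was narrow, the widest being 7.97% to 7.99% in BLM Lamp1-depleted cells. The share in BLM was 1.48 times that in sham in unsorted, 1.65 times in Lamp1-depleted and 1.39 times in Lamp1-enriched cells. It was higher in BLM in 3 of 3 fractions, for which an exact two-sided sign-flip permutation test gave p = 0.25, the smallest that 3 pairs allow. With 3 ratios of the same sign the test could give no other value. The fractions are not replicates of the treatment, so this p does not measure the spread between animals.

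Leaving out the reads on Gm26917 changed 1 library most. Among reads outside that gene, the mRNAs took 5.49%, 5.002% and 3.55% in unsorted, Lamp1-depleted and Lamp1-enriched sham cells and 8.64%, 12.95% and 4.95% in the same fractions of BLM cells. BLM Lamp1-depleted cells thus stood level with unsorted BLM cells over all reads and above them over reads outside Gm26917. The ratio of BLM to sham in Lamp1-depleted cells was 2.59 on this scale, against 1.57 in unsorted and 1.39 in Lamp1-enriched cells. The exact permutation p was again 0.25, with the same limits.

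**Figure D1:**
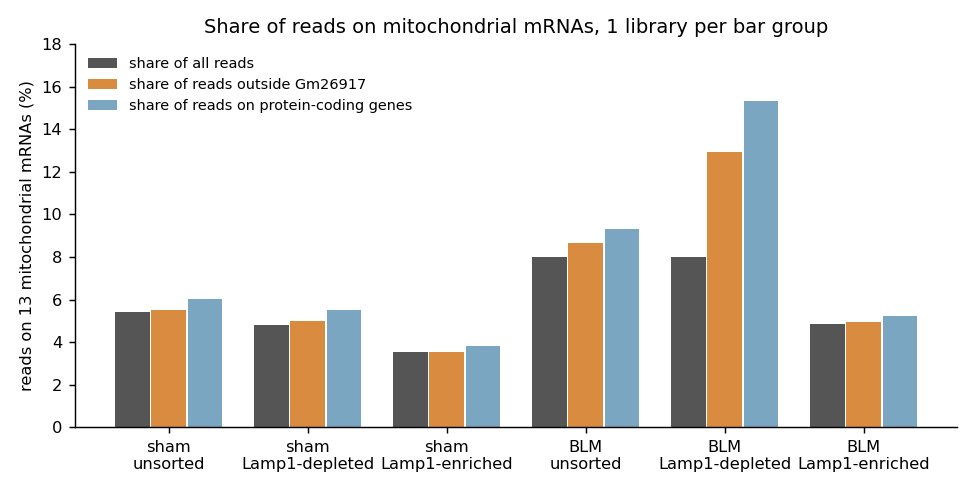
Share of reads, in percent, on the 13 mitochondrial mRNAs in each of the 6 libraries, over all reads, over reads outside Gm26917 and over reads on protein-coding genes; there is 1 library per condition and counting intervals are narrower than the line of a bar. The BLM Lamp1-depleted library moves from 7.98% to 12.95% when Gm26917 is left out, and the other libraries move by less.

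Scaled by edgeR TMM factors, which set the libraries against the bulk of the genes, the summed mRNA was higher in BLM than in sham by a log2 ratio of 0.83 in unsorted, 1.45 in Lamp1-depleted and 0.46 in Lamp1-enriched cells. It was lower in Lamp1-enriched than in Lamp1-depleted cells with log2 ratios of -0.28 (sham) and -1.27 (BLM). Each of the 5 ratios lay outside 0 by more than its counting interval. None of the sources of variation between mice is in that interval.

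The reads of the mRNAs were very unevenly spread along the chromosome, and the low genes were the 6 that lie whole within the copied stretch. These genes had 52 to 1838 reads in a library, and the other 7 (mt-Nd1, mt-Nd2, mt-Co1, mt-Nd4, mt-Nd5, mt-Nd6 and mt-Cytb) had 32397 to 1738655. Per length, the levels of the 6 genes were 3.38 to 128 CPM per kb, and those of the other 7 were 1397 to 48588. The 6 genes together held 0.0596% to 0.160% of the mRNA reads of a library. mt-Co2 and mt-Co3, core subunits of cytochrome c oxidase like mt-Co1, stood at 6.34 and 8.74 CPM per kb in unsorted sham cells, where mt-Co1 stood at 17027. The ATP synthase subunits mt-Atp6 and mt-Atp8, which share 43 bases of the chromosome, stood at 3.99 and 8.19 in the same library.

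Among the 6, the complex I subunits mt-Nd3 and mt-Nd4l were the highest, at 128 and 28.6 CPM per kb in unsorted sham cells. The 3 tRNA genes mt-Ts1, mt-Td and mt-Tk had 0 reads in every library and also lie within the stretch, and its other 2 tRNA genes, mt-Tg and mt-Tr, reached at most 69 reads. The 8 nuclear copies with an identity of at least 95% had 1405 to 2634 reads in all in a library. The setting used in counting for reads that match several places was not given in the sources used here, so the part of near-identical copies in these low counts was not tested. Levels of these 6 genes are therefore uncertain as a measure of their RNA.

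**Figure D2:**
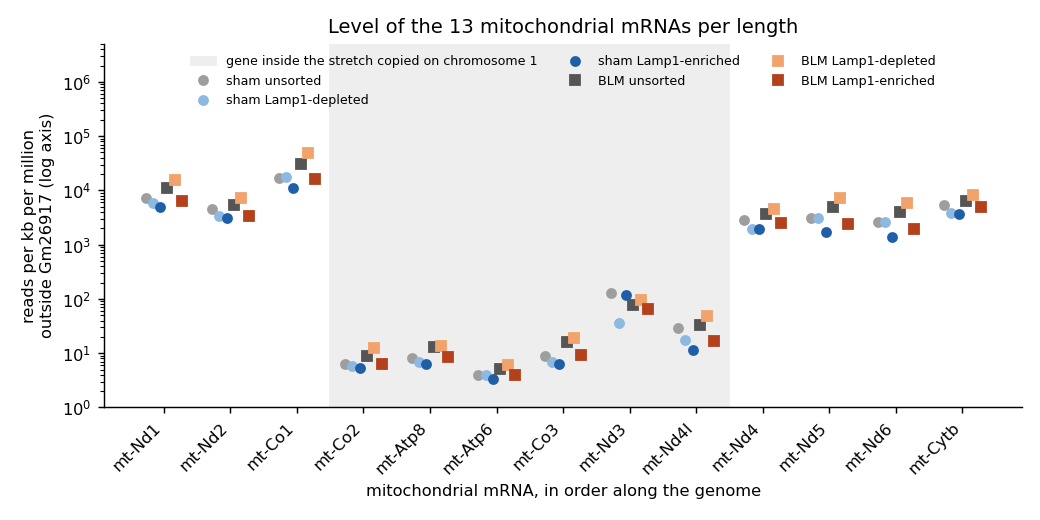
CPM per kb of gene, with CPM taken over reads outside Gm26917, on a log axis, for the 13 mitochondrial mRNAs in their order along the chromosome, with 1 point per library; the grey band marks the genes that lie whole within the stretch copied on chromosome 1. All points in the band are at or below 128, and all others are at or above 1397.

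Among the well-counted genes, mt-Co1 was the highest per length in every library and held about as many reads as all the others. Its level was 17027, 17385 and 10951 CPM per kb in unsorted, Lamp1-depleted and Lamp1-enriched sham cells. In BLM cells its level was 30490, 48588 and 16261. The second was mt-Nd1, a complex I subunit, at 7148, 5923 and 4877 in sham and 10928, 15637 and 6485 in BLM cells. The lowest of the 7 per length was mt-Nd6 in the unsorted and Lamp1-enriched sham libraries and in Lamp1-enriched BLM cells, and mt-Nd4 in the other 3. The copied stretch covers 63.6% of mt-Nd4 and 31.8% of mt-Co1, so their levels over the full length are uncertain as well. The part of the copy in these ranks was not tested. mt-Nd6 is the 1 mRNA encoded on the other strand, and the strand setting of the counting was not given in the sources used here, so its reads and those of RNA antisense to it cannot be told apart. On this scale 12 of the 13 mRNAs were highest in BLM Lamp1-depleted cells and 12 were lowest in sham Lamp1-enriched cells, and over all reads 11 were highest in unsorted BLM cells and 11 lowest in sham Lamp1-enriched cells.

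The make-up of the mitochondrial mRNA reads depends neither on library scaling nor on Gm26917. It can depend on how reads matching the chromosome 1 copy were counted, which was not given in the sources used here. The 6 genes inside the copied stretch held 0.0596% to 0.160% of the mRNA reads of a library. That stretch also covers 31.8% of mt-Co1 and 63.6% of mt-Nd4, and its part in these shares was not tested. mt-Co1 held 47.9%, 53.7% and 47.7% of the mRNA reads in unsorted, Lamp1-depleted and Lamp1-enriched sham cells and 54.5%, 58.0% and 50.8% in BLM cells. Its share was thus higher in BLM in 3 of 3 fractions and lower in Lamp1-enriched than in Lamp1-depleted cells in 2 of 2 treatments, each time beyond the counting interval. mt-Cytb, the mitochondrially encoded subunit of complex III, held 11.2%, 8.82% and 11.8% in sham and 8.33%, 7.13% and 11.5% in BLM cells. Its share moved the other way in all 5 comparisons, from a log2 ratio of shares of -0.42 for BLM over sham in unsorted cells to 0.68 for Lamp1-enriched over Lamp1-depleted in BLM. Shares have a fixed sum, so a larger share of mt-Co1 leaves less for the others together. The level of mt-Cytb was higher in BLM, as that of mt-Co1 was. It stood at 6136, 4411 and 4191 CPM in unsorted, Lamp1-depleted and Lamp1-enriched sham cells and at 7197, 9238 and 5675 in BLM cells.

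The shares of the complex I subunits fell into groups with opposite directions. mt-Nd2 held 8.51%, 6.91% and 9.02% of the mRNA reads in sham and 6.41%, 5.90% and 7.09% in BLM cells, and mt-Nd4 held 7.12%, 5.36% and 7.39% in sham and 5.77%, 4.75% and 7.02% in BLM cells. Both shares were lower in BLM in 3 of 3 fractions and higher in Lamp1-enriched cells in 2 of 2 treatments. mt-Nd5 held 10.2%, 11.1% and 8.76% in sham and 10.3%, 10.3% and 9.01% in BLM cells, and mt-Nd6 held 2.45%, 2.73% and 2.04% and then 2.41%, 2.33% and 2.04%. The shares of mt-Nd5 and mt-Nd6 were lower in Lamp1-enriched cells in 2 of 2 treatments, opposite to mt-Nd2 and mt-Nd4. The share of mt-Nd1 was also higher in Lamp1-enriched cells in 2 of 2 treatments beyond its interval, with log2 ratios of shares of 0.21 in sham and 0.12 in BLM, and it was lower in BLM in 2 of 3 fractions and higher in Lamp1-depleted cells.

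**Figure D3:**
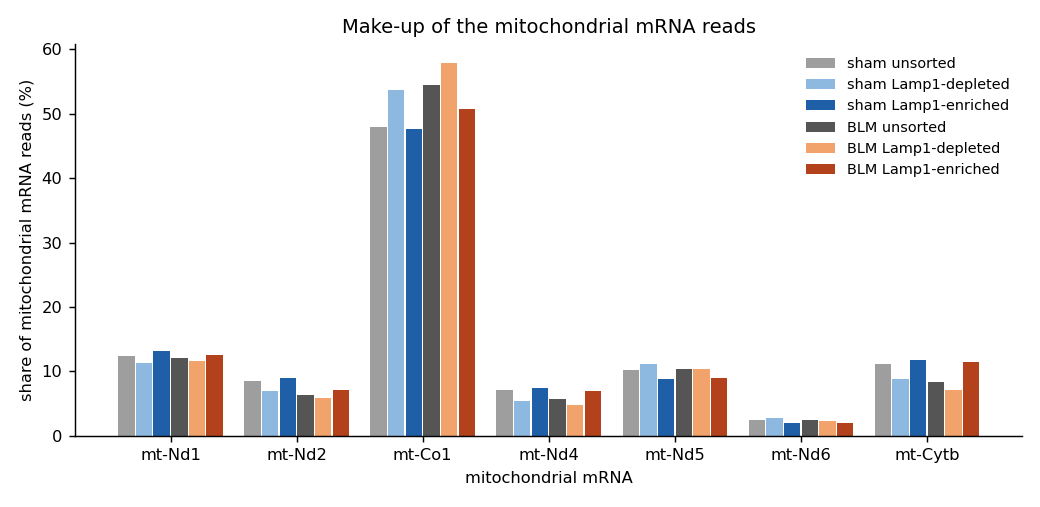
Share, in percent, of the mitochondrial mRNA reads held by each of the 7 well-counted mRNAs, with 1 bar per library. mt-Co1 ranges from 47.7% to 58.0% and is highest in BLM Lamp1-depleted cells, where mt-Cytb, mt-Nd2 and mt-Nd4 are lowest.

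Gene by gene, BLM over sham gave log2 ratios above 0 for 12 of 13 mRNAs in unsorted, 13 in Lamp1-depleted and 12 in Lamp1-enriched cells under TMM scaling. In unsorted cells 2 mRNAs, mt-Co1 (1.02) and mt-Co3 (1.06), were at least 2-fold higher and 0 at least 2-fold lower, where 13.9% and 16.0% of the 22772 genes compared passed these limits. In Lamp1-depleted cells 12 were at least 2-fold higher and 0 lower, against 13.7% and 22.3% of 20852 genes. In Lamp1-enriched cells 0 were past 2-fold in either direction, against 10.2% higher and 7.81% lower of 21671 genes. The median log2 ratio of the 13 mRNAs was 0.69, 1.27 and 0.41 in these fractions, and that of all genes was -0.07, -0.21 and -0.000265. Counts and medians over the 13 mRNAs, here and elsewhere, include the 6 genes whose levels are uncertain.

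The exception was mt-Nd3, which had 1785, 482 and 1838 reads in unsorted, Lamp1-depleted and Lamp1-enriched sham cells and 998, 617 and 1186 in BLM cells. Its log2 ratio of BLM over sham was -0.54 (-0.65 to -0.43) in unsorted, 1.46 (1.29 to 1.64) in Lamp1-depleted and -0.88 (-0.98 to -0.77) in Lamp1-enriched cells. It was the 1 mRNA at least 2-fold higher in Lamp1-enriched than in Lamp1-depleted sham cells, at a log2 ratio of 1.92 (1.77 to 2.07). It lies in the copied stretch and differs from its copy by 1 base.

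The scaling decided how large the BLM ratios were in Lamp1-depleted cells. With total counts only, 0 of 13 mRNAs were at least 2-fold higher there and the median of all 20852 genes moved from -0.21 to -0.92. The mRNA median was then 0.55, and 12 of 13 mRNAs still had a ratio above 0. The 2 mRNAs past 2-fold in unsorted cells also fell below that limit with total counts.

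**Figure D4:**
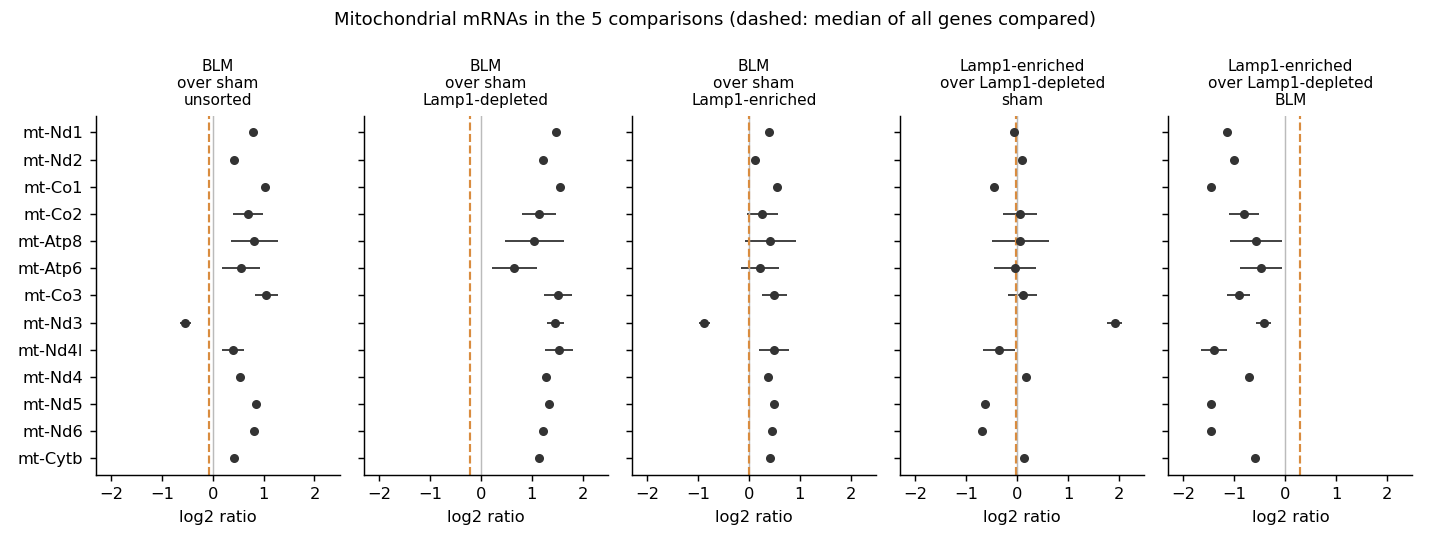
Log2 ratios of the 13 mitochondrial mRNAs under TMM scaling in the 5 comparisons between 2 libraries, with 95% counting intervals as bars and the median of all genes compared as a dashed line. In Lamp1-depleted cells 13 of 13 points lie above 0 for BLM over sham, and mt-Nd3 lies away from the other points for Lamp1-enriched over Lamp1-depleted in sham cells.

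The ratios of Lamp1-enriched over Lamp1-depleted cells had a median of 0.06 over the 13 mRNAs in sham and of -0.91 in BLM cells, where the medians of all genes were -0.01 and 0.29, and the difference between sham and BLM was not tested. In sham cells 7 of 13 mRNAs had a log2 ratio above 0 under TMM scaling and 2 of 13 with total counts only. There 1 was at least 2-fold higher and 0 lower, against 27.5% and 25.2% of 21867 genes. mt-Nd6 (-0.70), mt-Nd5 (-0.62) and mt-Co1 (-0.45) were the lowest in sham cells. In BLM cells 0 of 13 mRNAs had a ratio above 0 under TMM scaling and 2 of 13 with total counts only. There 6 were at least 2-fold lower and 0 higher, against 22.6% and 34.4% of 21838 genes. Those 6 were mt-Nd5 (-1.47), mt-Nd6 (-1.47), mt-Co1 (-1.46), mt-Nd4l (-1.40), mt-Nd1 (-1.15) and mt-Nd2 (-1.01), and with total counts only none of them passed 2-fold.

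With treatment as a block over the 4 sorted libraries, the quasi-likelihood test of edgeR called 22.5% of 20593 genes higher and 17.6% lower in Lamp1-enriched cells at an adjusted p under 0.05. Of the 13 mRNAs 0 passed in edgeR, 1 had an unadjusted p under 0.05, and DESeq2 called 3, mt-Co1, mt-Nd5 and mt-Nd6, all lower. Of all genes, DESeq2 called 3982 of 21664 higher and 3424 lower. The edgeR log2 fold change of mt-Nd6 was -1.09 (SE 0.48, adjusted p = 0.055) and that of mt-Co1 was -0.97 (SE 0.76, adjusted p = 0.32). The median over the 13 mRNAs was -0.42, against 0.11 for all genes tested. Among the 7 well-counted mRNAs the edgeR log2 fold changes ran from -1.09 (mt-Nd6) to -0.24 (mt-Cytb). This fit had 1 residual degree of freedom, which measures how the sorting difference varied between sham and BLM and not how animals vary. Its prior degrees of freedom were estimated as infinite, so each p rests on the trend of spread shared by all genes and on no estimate of the gene itself.

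With fraction as a block over the 6 libraries, edgeR called 2.32% of 21906 genes higher and 1.65% lower in BLM at an adjusted p under 0.05. Of the 13 mRNAs 0 passed in edgeR, 6 had an unadjusted p under 0.05, and DESeq2 called 5, mt-Nd1, mt-Co1, mt-Co3, mt-Nd5 and mt-Nd6, all higher. Of all genes, DESeq2 called 1094 of 19795 higher and 741 lower. The largest edgeR log2 fold changes were those of mt-Co1 at 1.04 (SE 0.45, adjusted p = 0.24) and mt-Co3 at 1.02 (SE 0.30, adjusted p = 0.095). The median over the 13 mRNAs was 0.76, against -0.09 for all genes tested. Among the 7 well-counted mRNAs the edgeR log2 fold changes ran from 0.58 (mt-Nd2) to 1.04 (mt-Co1). The 870 calls split into 509 higher and 361 lower under TMM scaling, and the 1127 calls with total counts only into 380 higher and 747 lower. Without both Lamp1-depleted libraries the median of the mRNAs was 0.48 and 0 of 13 passed in edgeR.

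The tRNA genes, 59 to 75 bases long, took few reads of these poly(A) libraries, and their summed level was highest in BLM Lamp1-depleted cells. They took 263, 201 and 137 CPM in unsorted, Lamp1-depleted and Lamp1-enriched sham cells, and 401, 1009.6 and 147 in BLM cells. As a share of all mitochondrial reads this was 0.478%, 0.401% and 0.384% in sham and 0.463%, 0.773% and 0.297% in BLM cells. The summed tRNA reads were higher in BLM than in sham Lamp1-depleted cells by a log2 ratio of 2.40 (2.36 to 2.44), against 0.79 (0.75 to 0.82) in unsorted and 0.08 (0.04 to 0.13) in Lamp1-enriched cells. The 8 tRNA genes of the minus strand held 89.2% to 94.2% of the tRNA reads, and the 14 of the plus strand held the rest. The strand and overlap settings of the counting were not given in the sources used here. As for mt-Nd6, reads of a tRNA gene, mt-Tn, mt-Tc and mt-Tp included, cannot be told apart from those of RNA antisense to it. The part of these settings in the split between strands was not tested.

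Of the 3 abundant tRNA genes, mt-Tn and mt-Tc had the largest ratios in Lamp1-depleted cells. They are the neighbours on either side of the light-strand origin. mt-Tn had 2565, 2390 and 1349 reads in unsorted, Lamp1-depleted and Lamp1-enriched sham cells and 4326, 7613 and 1766 in BLM cells. mt-Tc had 1494, 1753 and 622 reads in sham and 2386, 5708 and 861 in BLM cells. Together they held 38.4%, 53.8% and 32.3% of the tRNA reads in sham and 45.3%, 70.8% and 34.2% in BLM cells, most in the Lamp1-depleted fraction of each treatment. Their summed level was 101, 108 and 44.1 CPM in sham and 182, 715 and 50.4 in BLM cells. All other tRNA genes together stood at 162, 93.0 and 92.6 in sham and at 219, 295 and 96.8 in BLM cells.

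The order of the 6 libraries by the summed level of mt-Tn and mt-Tc was the same as their order by the share of reads on Gm26917, and the part of what sets that share in this result was not tested. The share of reads on Gm42418, the other gene known from earlier results, was likewise highest in BLM Lamp1-depleted cells, at 1.19% against 0.0654% to 0.407% in the other libraries. mt-Tp, the third abundant tRNA gene, had 2638, 2077 and 2512 reads in sham and 5299, 2864 and 3601 in BLM cells. Its log2 ratio of BLM over sham was 1.31 in unsorted, 1.57 in Lamp1-depleted and 0.28 in Lamp1-enriched cells, and those of mt-Tn (1.05, 2.78 and 0.14) and mt-Tc (0.97, 2.81 and 0.22) were far larger in Lamp1-depleted than in unsorted cells.

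Of the tRNA genes with at least 10 reads in a library of the pair, 3 of 17 were at least 2-fold higher and 1 lower in unsorted BLM than in sham cells, 16 of 18 were higher and 0 lower in Lamp1-depleted cells, and 2 of 14 were higher and 2 lower in Lamp1-enriched cells. The background shares of these limits are those given for the mRNAs. Named after their values were seen, the genes past the limit in unsorted cells were mt-Tn, mt-Tp and mt-Tt, all higher, and mt-Ti, lower, and those in Lamp1-enriched cells were mt-Tr and mt-Tv (0 reads in sham and 17 in BLM), higher, and mt-Ti and mt-Tm, lower. The largest ratios there were those of 3 plus-strand genes, named after their values were seen. They were mt-Th, with 5 reads in sham and 146 in BLM Lamp1-depleted cells (log2 ratio 5.83, 4.72 to 7.62), mt-Tv, with 5 and 63 reads (4.62, 3.47 to 6.44), and mt-Tl2, with 30 and 241 reads (4.09, 3.56 to 4.71). In every other library each had at most 95 reads. In Lamp1-enriched over Lamp1-depleted cells, 0 of 14 tRNA genes were 2-fold higher and 3 (mt-Tc, mt-Tr and mt-Tt) lower in sham, and 0 of 18 were higher and 17 lower in BLM. Of all genes compared, 27.5% were 2-fold higher and 25.2% lower in sham, and 34.4% were higher and 22.6% lower in BLM.

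In the edgeR fit over the 4 sorted libraries, 8 of 15 tRNA genes tested passed an adjusted p under 0.05, all lower in Lamp1-enriched cells, where 17.6% of all genes were called lower. The log2 fold change of mt-Tc was -2.82 (SE 0.40, adjusted p = 3.6e-11) and that of mt-Tn was -2.17 (SE 0.41, adjusted p = 8.0e-07) in edgeR. mt-Tl2 (-2.27), mt-Tl1 (-1.10) and mt-Ty (-0.97) passed as well, with mt-Tv, mt-Tr and mt-Tt, which had under 100 reads in every library. In Lamp1-depleted and Lamp1-enriched sham cells, mt-Tl2 had 30 and 29 reads and mt-Tl1 had 266 and 283. The log2 ratio of mt-Ty was 0.31 in sham and -2.22 in BLM. The lower values of mt-Tl2, mt-Tl1 and mt-Ty thus came from the BLM pair. mt-Tp (-0.40, SE 0.36, adjusted p = 0.39) did not pass in edgeR. With total counts only, 1 of 15 passed in edgeR, mt-Tc, where 1564 of 20593 genes were called lower. DESeq2 called 6 tRNA genes, all lower, where it called 3424 of 21664 genes lower. In the edgeR fit of BLM against sham, 0 of 17 tRNA genes passed, and 5 had an unadjusted p under 0.05. DESeq2 called 4, mt-Tv, mt-Tn, mt-Tc and mt-Tp, all higher, where it called 1094 of 19795 genes higher. Without the unsorted sham library edgeR called 5 tRNA genes higher in BLM, without the Lamp1-enriched sham library 5, without the unsorted BLM library 4 and without the Lamp1-enriched BLM library 4, with mt-Tn and mt-Tc among them each time. Of all genes, in the same order, edgeR called 475 of 23385, 705 of 23893, 375 of 23675 and 672 of 23870 higher. Without the sham Lamp1-depleted library it called 0 and without the BLM Lamp1-depleted library 0. The log2 fold change of mt-Tn, 1.31 over all 6 libraries, was 0.60 and 0.56 in these fits, and that of mt-Tc, 1.32, was 0.60 and 0.56. Their prior degrees of freedom were 7.93 and 11.5, against 8.44 over all 6 libraries. In each left-out fit with tRNA calls the prior was estimated as infinite, and the part of this in the calls was not tested.

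**Figure D5:**
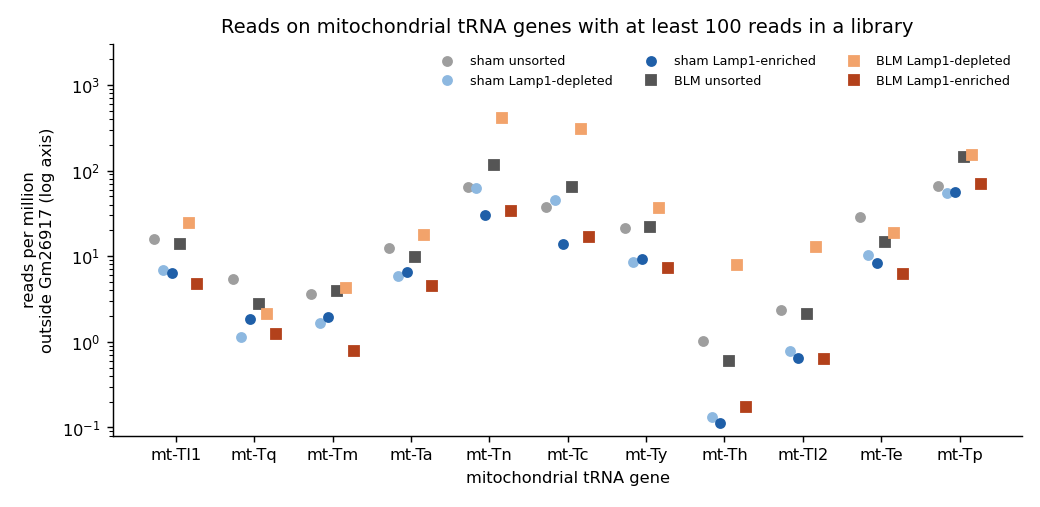
CPM over reads outside Gm26917, on a log axis, for the 11 mitochondrial tRNA genes with at least 100 reads in a library, in their order along the chromosome, with 1 point per library. mt-Tn and mt-Tc reach 408 and 306 in BLM Lamp1-depleted cells, where mt-Tp reaches 154.

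Most listed nuclear subunits of complexes I and IV had ratios of BLM over sham below 0, where most mitochondrial mRNAs had ratios above 0. All of the listed nuclear subunits were found in the table. Of 36 nuclear complex I subunits, 10 had a log2 ratio of BLM over sham above 0 in unsorted, 6 in Lamp1-depleted and 5 in Lamp1-enriched cells, with medians of -0.24, -0.60 and -0.24. The medians of all genes compared were -0.07, -0.21 and -0.000265 in the same fractions. Of the nuclear complex IV subunits, 4 of 16 were above 0 in unsorted, 3 of 15 in Lamp1-depleted and 0 of 15 in Lamp1-enriched cells, with medians of -0.35, -1.12 and -0.37. The 16 nuclear ATP synthase genes had medians of 0.03, -0.48 and -0.07, the 10 of complex III and cytochrome c had -0.07, -0.61 and -0.05, and the 4 of complex II, which has no mitochondrially encoded subunit, had 0.49, -0.62 and -0.13. In the edgeR fit of BLM against sham 0 of the 82 nuclear genes were called higher and 1 lower, Cox4i2, a complex IV subunit (log2 fold change -1.52, SE 0.33 in edgeR), which is named after its values were seen. Of all genes in that fit, 2.32% were called higher and 1.65% lower.

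The reads on the 7 well-counted mitochondrial mRNAs were 22.6, 19.7 and 14.3 times those on the 82 nuclear subunit genes in unsorted, Lamp1-depleted and Lamp1-enriched sham cells. In BLM cells they were 36.3, 74.3 and 21.6 times. The ratio, which needs no library scaling, was thus 1.61 times as high in BLM as in sham unsorted cells, 3.77 times in Lamp1-depleted and 1.51 times in Lamp1-enriched cells. Between the fractions it was lower in Lamp1-enriched than in Lamp1-depleted cells, at 0.728 times in sham and 0.291 times in BLM. The other 6 mRNAs were left out, and 31.8% of mt-Co1 and 63.6% of mt-Nd4 lie in the copied stretch. The size of the ratio is therefore uncertain as a measure of mitochondrial against nuclear RNA.

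In the sorted cells, nuclear subunits were called higher in Lamp1-enriched cells about as often as genes in general, of which edgeR called 22.5% higher and 17.6% lower. The fit called 9 of 36 complex I, 2 of 4 complex II, 2 of 10 complex III and cytochrome c, 4 of 15 complex IV and 1 of 16 ATP synthase genes higher in Lamp1-enriched cells, and 0 of them lower. Named after their values were seen, those outside complex I were Sdhc and Sdhd of complex II, Uqcr11 and Uqcrb of complex III, Cox4i2, Cox6a1, Ndufa4 and Cox7a2 of complex IV and Atp5g1 of ATP synthase. Ndufa8, a complex I subunit, stood at 18.2, 8.61 and 18.8 CPM in unsorted, Lamp1-depleted and Lamp1-enriched sham cells and at 14.03, 6.06 and 21.8 in BLM cells. Ndufa4, a subunit of complex IV despite its name, stood at 34.0, 22.1 and 31.6 in sham and at 10.6, 4.40 and 24.9 in BLM cells. The log2 fold change in edgeR was 1.63 (SE 0.40) for Ndufa8 and 1.63 (SE 0.39) for Ndufa4. Ndufs7, another complex I subunit, stood at 66.8 in BLM Lamp1-depleted and 25.3 in BLM Lamp1-enriched cells and did not pass the test (-0.62, SE 0.36, adjusted p = 0.15 in edgeR).

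A list of 22 genes for copying and transcribing mitochondrial DNA also held regulators of nuclear genes, Ppargc1b and Esrra among them. Of these 22, edgeR called 5 lower and 0 higher in Lamp1-enriched cells, against 17.6% lower and 22.5% higher of all genes. Tfam, which packages mitochondrial DNA and starts its transcription, stood at 25.6, 65.9 and 17.9 CPM in unsorted, Lamp1-depleted and Lamp1-enriched sham cells and at 16.9, 40.5 and 16.1 in BLM cells, with a log2 fold change of -1.45 (SE 0.35) in edgeR. Polg2, the accessory subunit of the mitochondrial DNA polymerase, had one of -1.46 (SE 0.35). Of the 26 genes of mitochondrial RNA processing and stability, 2 were called higher, Mrm2 and Pde12, and 3 lower, Tbrg4, Nsun4 and Mrm1. Of the 78 mitoribosomal protein genes tested, 8 were called higher and 1, Mrps18b, lower, and the same 22.5% higher and 17.6% lower of all genes is the background of both counts. Ppargc1b, a coactivator of genes for mitochondria named after its values were seen, had a log2 fold change of -3.34 (SE 0.47), the largest of those 5 called genes, which also included Esrra and Primpol. In BLM against sham, edgeR called 1 of these 22 genes higher, again Ppargc1b at 1.55 (SE 0.36), and 0 of the 26 processing and 78 mitoribosomal genes in either direction. In unsorted cells and pooled sorts alike, fewer cells of a type and less RNA per cell cannot be told apart.

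Heart muscle, whose cells are rich in mitochondria, can be carried along with lung tissue. The 10 cardiomyocyte markers summed to 33.9, 13.997 and 14.8 CPM in unsorted, Lamp1-depleted and Lamp1-enriched sham cells and to 23.1, 26.8 and 13.2 in BLM cells. In BLM Lamp1-depleted cells, the library with the highest mitochondrial share outside Gm26917, 3 of the 10 had 3 reads or fewer, with Myl7 and Nppa at 0, and the sum was above that of sham Lamp1-depleted cells, where Myl2 was at 0. The part of heart cells in the mitochondrial share was not tested. The T cell markers found, 9 of 10, summed to 824 and 505 in sham and BLM Lamp1-depleted cells and to 27.8 to 80.8 in the other 4 libraries, and their part in the sorted difference was not tested.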

How the data were processed

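The files hold 1 table of raw counts per gene, which the authors deposited for all 6 libraries (paired reads of 150 bases). Per the labels, the processing notes name Trimmomatic 0.36, STAR 2.5.2b, featureCounts of Subread 1.5.2, DESeq2 and the build GRCm38. Strand, overlap and multiple-match settings were not given in the sources used here. Per-gene fold changes and p-values of the authors' own comparisons were not used.

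Samples were grouped by treatment and fraction from the labels. Shares carry exact Clopper-Pearson intervals. Log2 ratios used the count plus 0.5, TMM factors and genes with at least 10 reads in 1 library of the pair, with 95% intervals from the conditional binomial. With 30236120 to 52918696 reads a library, these intervals are narrow and cover counting error only. Tests across genes were quasi-likelihood fits (glmQLFit, glmQLFTest) of edgeR 4.0.16 in R 4.3.3 on genes kept by filterByExpr, with Benjamini-Hochberg adjustment over all genes, and DESeq2 1.42.0 was an alternative. The edgeR fits were tested on simulated counts, and DESeq2 was not. The 4 sorted libraries were fitted with treatment as a block and the 6 libraries with fraction as a block. Nuclear copies were found as transcripts of GENCODE M21 sharing 50 bases with a member and aligned without gaps. Other scalings, read minimums, prior counts, fold limits and left-out libraries were alternatives, and leaving out both Lamp1-depleted libraries was chosen after seeing the data.

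Named were all 13 mRNAs, tRNA genes with at least 100 reads in a library, and from each nuclear list some of the 3 highest and 3 lowest genes by mean ratio of Lamp1-enriched over Lamp1-depleted among those with at least 50 reads in every library. The members, lists, markers and tests were chosen with earlier results of these data known. Of the marker lists, edgeR called 10 of 10 endothelial, 10 of 10 platelet, 9 of 10 fibroblast and 7 of 10 alveolar type 2 genes higher in Lamp1-enriched cells, 1 alveolar type 2 gene, 9 of 9 T cell and 10 of 10 B cell genes lower, 1 of 8 macrophage genes lower, 0 of 6 ciliated genes and 1 cardiomyocyte gene each way. In BLM it called 6 platelet, 4 B cell and 5 alveolar type 2 genes lower, 5 macrophage genes and 1 ciliated gene higher, 3 fibroblast genes higher and 4 lower, and 0 endothelial, T cell and cardiomyocyte genes.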

Additional observations from a re-analysis of the deposited data

Results flagged for a closer look

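Some members had log2 ratios, under TMM scaling, of opposite sign in the groups compared, each beyond its counting interval in at least 1 group of either sign. With 1 library per group the differences between groups were not tested, and their causes were not tested.

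For Lamp1-enriched over Lamp1-depleted cells, the log2 ratio of mt-Nd2 in sham was 0.10, and its ratio in BLM cells was -1.01. For mt-Nd4 the values were 0.18 and -0.71. mt-Cytb had 0.14 and -0.59, and mt-Tp had 0.26 and -1.04. The ratio of mt-Nd3 was 1.92 in sham and -0.42 in BLM. mt-Tq had 0.88 and -0.65, mt-Ta had 0.36 and -1.86, and mt-Ty had 0.31 and -2.22. The small positive ratios of mt-Nd2, mt-Nd4 and mt-Cytb in sham cells depend on the scaling, since with total counts only 2 of 13 mRNAs had a ratio above 0 there.

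For BLM over sham, the signs differed between fractions, given here as unsorted, Lamp1-depleted and Lamp1-enriched cells. mt-Nd3 had log2 ratios of -0.54, 1.46 and -0.88. The ratios of mt-Tl1 were -0.011, 1.89 and -0.43. mt-Tq had -0.80, 0.93 and -0.60, and mt-Te had -0.78, 0.92 and -0.44. Those of mt-Ta were -0.16, 1.67 and -0.55. mt-Tm had 0.27, 1.42 and -1.30, and mt-Ty had 0.21, 2.15 and -0.38. In each of these genes the positive ratio of the Lamp1-depleted cells rests on the library in which Gm26917 took 38.4% of the reads, and the part of that in the result was not tested.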

How the results depend on the processing

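With 1 library per condition, the limits are the absence of replicates, the few residual degrees of freedom of both fits and the scaling of the BLM Lamp1-depleted library. No paired analysis was possible because each condition has 1 library, with no replicate numbers to serve as a block, and libraries were matched by fraction or treatment only. Leaving out a library from the fit of the 4 sorted libraries leaves no residual degrees of freedom, so it was not run. For each change given here the cause was not tested.

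The mRNA share was higher in BLM in every fraction over each denominator. It was 5.49%, 5.002% and 3.55% in unsorted, Lamp1-depleted and Lamp1-enriched sham cells and 8.64%, 12.95% and 4.95% in BLM cells outside Gm26917, and 6.02%, 5.52% and 3.83% and then 9.33%, 15.3% and 5.25% over reads on protein-coding genes. The share of mt-Co1 over all reads on mt- rows was 47.7%, 53.5% and 47.5% in sham and 54.3%, 57.5% and 50.6% in BLM cells.

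The log2 ratios of the summed mRNA kept their sign under every scaling. For BLM over sham in unsorted, Lamp1-depleted and Lamp1-enriched cells they were 0.57, 0.73 and 0.47 with total counts only, 0.65, 1.37 and 0.48 with total counts outside Gm26917, and 0.85, 1.60 and 0.44 with DESeq2 size factors. TMM factors over nuclear genes gave 0.86 and 1.46 in unsorted and Lamp1-depleted cells. For Lamp1-enriched over Lamp1-depleted in sham and BLM cells they were -0.46 and -0.71 with total counts only, -0.49 and -1.39 outside Gm26917, -0.27 and -1.42 with DESeq2 size factors, and -0.29 and -1.29 with TMM factors over nuclear genes.

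Counts of members past 2-fold moved as follows. With total counts only, 0 mRNAs were higher in BLM in unsorted and 0 in Lamp1-depleted cells, 3 tRNAs were lower in unsorted BLM cells, and 0 mRNAs were lower in Lamp1-enriched than in Lamp1-depleted BLM cells. With total counts outside Gm26917, 0 mRNAs were higher in unsorted BLM cells. At a limit of 1.5-fold, 7 mRNAs and 5 tRNAs were higher and 4 tRNAs lower in unsorted BLM cells, 1 mRNA was lower in Lamp1-enriched BLM than sham cells, 2 mRNAs were lower and 1 tRNA higher in Lamp1-enriched than in Lamp1-depleted sham cells, and 10 mRNAs were lower in the same comparison in BLM. With genes of at least 1 read, 2 tRNAs were lower in unsorted BLM cells, 1 was higher and 5 lower in Lamp1-enriched than in Lamp1-depleted sham cells, and 1 was higher in BLM. With at least 50 reads, 0 tRNAs were lower in unsorted BLM cells, 0 higher and 1 lower in Lamp1-enriched BLM cells, and 1 lower in Lamp1-enriched than in Lamp1-depleted sham cells.

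In the fit of the sorted libraries, total counts only gave 4437 calls instead of 8250 and 1 tRNA in place of 8. DESeq2 called 3 mRNAs among 7406 genes called, and the edgeR fit of all 6 libraries called 1, mt-Nd6, among 8192. The log2 fold change of mt-Tq, which did not pass, turned from 0.11 to -0.042 with total counts outside Gm26917.

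In the fit of BLM against sham, 870 genes were called with all libraries, 1835 by DESeq2, 2038 with all genes of at least 1 read and, without the fraction block, 0 in edgeR, where 772 had an unadjusted p under 0.05. Leaving out 1 library gave 722 to 1604 calls, the most without the BLM Lamp1-depleted library. Of the mRNAs, DESeq2 called 5 and the fit of all genes 2. Of the tRNAs, 1 was called with total counts only, 4 by DESeq2, 4 with all genes, and 0 to 5 when 1 library was left out. The log2 fold change of mt-Nd3, which did not pass, turned from -0.018 to 0.031 in DESeq2 and ranged from -0.75 to 0.48 when 1 library was left out, being 0.29 without unsorted sham, 0.48 without Lamp1-enriched sham, 0.28 without unsorted BLM and 0.46 without Lamp1-enriched BLM cells.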
